A study of Saccharomyces cerevisiae with 24 samples.

Results

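The comparison sets ribosomal RNA (rRNA) from fraction 3 (F3) of a yeast polysome gradient against rRNA from fraction 2 (F2) of such a gradient. It uses 4 of the 24 nanopore direct RNA libraries of the series, with 2 libraries per fraction. Positions were kept where each of the 4 libraries had at least 50 reads, which left 5424 of the 5475 positions of the 18S, 25S, 5.8S and 5S rRNAs. All 113 known modified sites were among them: 45 pseudouridines (Ψ), 56 2′-O-methylated nucleotides (Nm) and 12 nucleotides with other base modifications.

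Both fractions came from Saccharomyces cerevisiae strain BY4741 of genotype WT, grown without stress in YPD medium at 30 °C, from cultures made as biological duplicates. Every culture received cycloheximide, which stalls ribosomes on mRNA, for 5 min before harvest, and each extract was run on a linear sucrose gradient of 10 to 50%. F3 and F2 therefore share strain, medium, drug and lysis, and differ by gradient fraction. Which ribosome populations each fraction holds is not stated in the labels used here. A pool of fractions 3 and 4 elsewhere in the series is titled translated, so F3 lies on the side of the gradient that the study assigned to translating ribosomes.

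A sucrose gradient separates ribosomal particles by size, with free subunits near the top, single ribosomes below them and polysomes, in which several ribosomes share an mRNA, toward the bottom. Yeast rRNA is modified mainly during its assembly. H/ACA snoRNPs with the synthase Cbf5 turn chosen uridines into Ψ, C/D snoRNPs with the methyltransferase Nop1 place 2′-O-methyl groups, and dedicated enzymes methylate or acetylate individual bases. In direct RNA sequencing a modified nucleotide changes the current in the pore, and the basecaller then reports mismatches, insertions, deletions and a low base quality at or near the site. Reads run from the 3′ end of each molecule.

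The sequences on which the main differences lie are shown first, as the base column of the deposited tables gives them (T stands for U), 5′ to 3′. Position 1 is the first nucleotide of the mature rRNA. In the first line the capitals mark the last 3 nucleotides of 18S, at positions 1798 to 1800. In the next 4 lines they mark the uridines that are the Ψ sites with the largest non-overlapping differences in mismatch. In the 5S line they mark Ψ50 and its 3′ neighbour. In the 5.8S line, which covers positions 56 to 139, they mark the 10 positions where deletion was at least 3 percentage points lower in F3 and the libraries did not overlap.
18S 3′ end (1771 to 1800): tccgtaggtgaacctgcggaaggatcaTTA
25S Ψ990 (980 to 1000): atcagttttaTgaggtaaagc
18S Ψ211 (201 to 221): gatgtatttaTtagataaaaa
18S Ψ1181 (1171 to 1191): agcctgcggcTtaatttgact
18S Ψ759 (749 to 769): ttgaaaaaatTagagtgttca
5S Ψ50 (40 to 60): cgatcaactgTAgttaagctg
5.8S (56 to 139): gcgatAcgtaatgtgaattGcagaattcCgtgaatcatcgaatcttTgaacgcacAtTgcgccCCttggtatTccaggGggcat

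Depth differed by more than an order of magnitude between the libraries. Median coverage per position was 1208 reads in F3 replicate 1 and 272 reads in F3 replicate 2, against 12630 reads in F2 replicate 1 and 933 reads in F2 replicate 2. Of these 4 libraries F3 replicate 2 was the shallowest by this median and F2 replicate 1 the deepest, although over 5S F2 replicate 2 had the fewest reads. The Wilson 95% intervals given below cover counting error only. Within each fraction, replicate 2 had fewer errors, higher base quality and a steeper loss of coverage toward the 5′ end than replicate 1. At positions at least 6 bases from any known site, mean base quality was 17.5 in F3 replicate 1 and 18.7 in F3 replicate 2, against 17.1 in F2 replicate 1 and 19.1 in F2 replicate 2. The F2 values enclose the F3 values. For this reason differences are also given within each replicate number, as F3 minus F2.

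The first question was whether the fractions held the 4 rRNAs in the same proportion. The small-subunit 18S rRNA was lower relative to the large-subunit 25S rRNA in F3, whereas the 5S rRNA, a separate transcript of the large subunit, was far higher relative to 25S. On a log2 scale, mean 18S coverage over mean 25S coverage was -0.14 in F3 replicate 1 and 0.33 in F3 replicate 2, against 0.57 and 0.56 in F2 replicates 1 and 2. Both F3 libraries lay below both F2 libraries, with a difference of -0.47 on the log2 scale (F3 0.10 ± 0.33, F2 0.56 ± 0.0049, SD, n = 2 each). The exact two-sided permutation test over the 4 libraries gave p = 0.333, the smallest value that its 6 splits allow, so no comparison of single values here can pass 0.05. Within replicate number 1 the difference was -0.71, and within number 2 it was -0.23. Over F1 replicates 1 and 2 the ratio was 0.83 and -0.014, and over F4 replicates 1 and 2 it was 0.18 and 0.25. The F1 replicates thus lay farther apart than the means of F3 and F2.

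Coverage of 5S averaged 808 reads per position in F3 replicate 1 and 2001 in F3 replicate 2, against 475 in F2 replicate 1 and 137 in F2 replicate 2. Coverage of 25S averaged 1411 reads in F3 replicate 1 and 323 in F3 replicate 2, against 11332 in F2 replicate 1 and 1129 in F2 replicate 2. The log2 ratio of 5S to 25S was thus -0.80 and 2.63 in F3 replicates 1 and 2, against -4.58 and -3.05 in F2 replicates 1 and 2. The groups did not overlap and differed by 4.73 on the log2 scale (exact permutation p = 0.333), with 3.77 within number 1 and 5.68 within number 2. This ratio was computed after the coverage values had been seen. Over the pair of F1 libraries it was 0.10 and 0.33, and over the pair of F4 libraries -0.47 and -5.99, so replicates of a fraction could differ as widely as F3 and F2. The amount of 5S in a library and the amount of 25S that reached the pore cannot be told apart in this ratio.

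The 5.8S rRNA, which is base-paired with 25S in the ribosome, gave overlapping groups. Its log2 ratio to 25S was -2.23 in F3 replicate 1 and -0.94 in F3 replicate 2, against -3.38 in F2 replicate 1 and -1.96 in F2 replicate 2. Within each replicate number it was higher in F3, by 1.15 and 1.02, and the exact permutation p over the 4 libraries was 0.667.

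**Figure D1:**
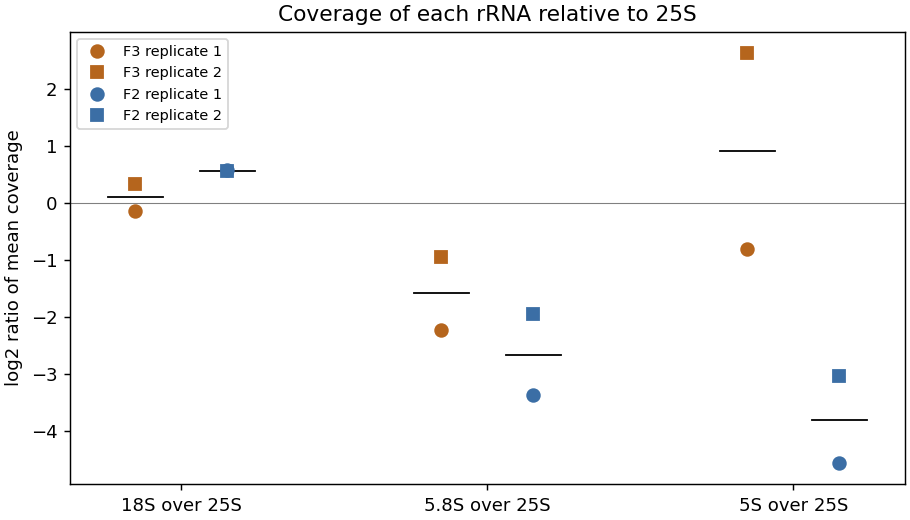
Log2 ratio of the mean coverage of 18S, 5.8S and 5S rRNA to that of 25S in each library (circles, replicate 1; squares, replicate 2; lines, group means). F3 libraries lie below F2 for 18S, above F2 for 5S at -0.80 and 2.63 against -4.58 and -3.05, and overlap F2 for 5.8S.

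Read-through toward the 5′ ends did not separate the fractions. The log2 ratio of coverage in the first 200 bases to that in the last 200 bases of 18S was -1.46 and -2.24 in F3 replicates 1 and 2, against -1.22 and -2.65 in F2 replicates 1 and 2 (exact permutation p = 1.0). For 25S it was -2.0 and -3.37 in F3, against -1.79 and -4.44 in F2 (exact permutation p = 1.0). In both rRNAs the F2 libraries enclosed the F3 libraries.

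**Figure D2:**
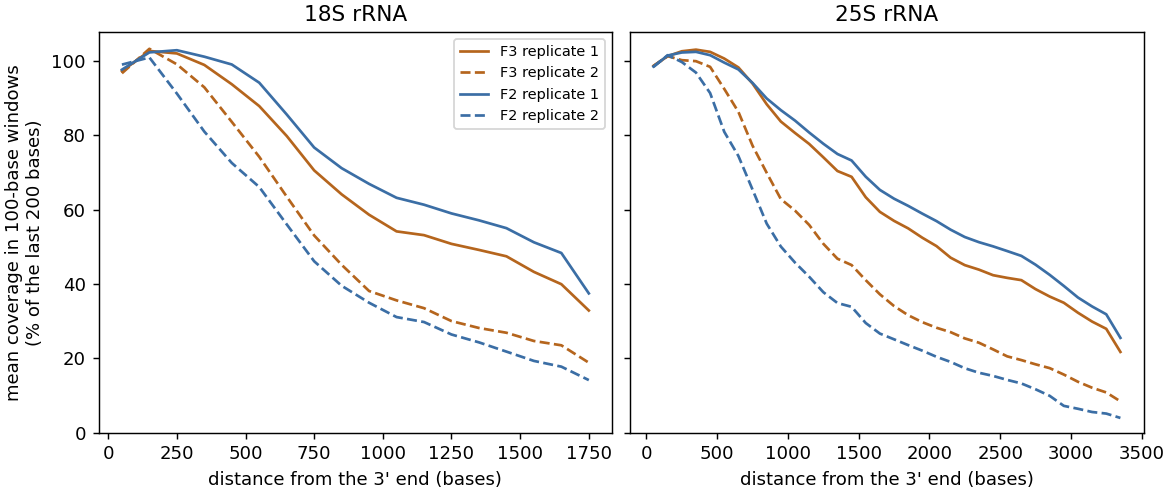
Mean coverage in 100-base windows of 18S and 25S, as a percentage of the mean over the last 200 bases, against distance from the 3′ end. Solid lines are replicate 1 and dashed lines replicate 2, and at the far end the lines order by replicate number, not by fraction.

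The main comparison asked whether any position of the rRNAs differed in its error features. In the quasi-binomial model on recovered reads, 0 of 5424 positions passed an adjusted p of 0.05 for mismatch, insertion, deletion or any error (mismatch, insertion and deletion summed), which is 0.0% for each. In limma's test of base quality 0 positions passed as well (0.0%). At an unadjusted p under 0.05 there were 68 positions for mismatch, 48 for insertion, 85 for deletion, 26 for any error and 1 for base quality. Limma on empirical logits of the same reads also called 0 positions, with 79 for mismatch, 67 for insertion, 150 for deletion and 49 for any error at an unadjusted p under 0.05. All of these unadjusted counts are smaller than the share of 0.05 of 5424 positions reached on average without any difference. None marks an excess, but counts so far below that share do not show that the fractions are alike. With replicate number added to the main fits as a block they were 68 for mismatch, 258 for insertion and 66 for deletion. For any error that count was 267, and for base quality 93. Mismatch reads were also simulated with the coverages and mean rates of these 4 libraries at 5424 positions. The spread between libraries was set, not taken from the data, and libraries were drawn independently. There the quasi-binomial model recovered 60.4% of changes of 2 on the log odds scale and 71.3% of changes of 3. Smaller changes were not simulated, so these rates do not tell how often smaller differences would be called. The smallest adjusted p for mismatch was 0.145, at position 3381 of 25S. With either F2 library left out, the same position ranked first for mismatch and for any error.

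The 0 calls depended on both F2 libraries. With an F2 library left out, the spread comes from the F3 pair alone and the lone F2 library is assumed to vary as they do. Relative to counting error the F3 pair differed less than the F2 pair, with a mean chi-square per position of 1.49 against 6.20 for mismatch. For the same difference in percentage points the chi-square is larger at higher coverage, and F2 replicate 1 was the deepest library. The median absolute difference in mismatch between replicates was 0.796 points in F3 and 0.802 points in F2. Calls made with an F2 library left out do not test the spread of F2. Without F2 replicate 1 the model called 85 positions for mismatch, 82 of them higher in F3, and without F2 replicate 2 it called 20, of which 16 were lower in F3. For deletion the counts were 52 without F2 replicate 1, with 42 higher in F3, and 45 without F2 replicate 2, with 41 lower in F3. For insertion they were 26 and 3, and for any error 154 and 29. Leaving out F3 replicate 1 gave 1 call for any error, and leaving out F3 replicate 2 gave 1 call for deletion. Mean deletion at unmodified positions was 5.08% and 4.72% in F3 replicates 1 and 2, against 5.32% and 4.51% in F2 replicates 1 and 2, so the F3 libraries lay between the F2 libraries.

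As a description without a test, positions were counted at which both F3 libraries lay on the same side of both F2 libraries. Of all 5424 positions this held for 652 higher (12.0%) and 400 lower (7.37%) in mismatch, and for 768 higher (14.2%) and 371 lower (6.84%) in insertion. It held for 652 higher (12.0%) and 635 lower (11.7%) in deletion, and for 101 higher (1.86%) and 95 lower (1.75%) in base quality. These shares are the background against which the counts over modified sites are read.

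The Ψ sites, the class with the strongest mismatch signal, gave means that overlapped between the fractions. Mean mismatch over the 45 sites was 47.3% in F3 replicate 1 and 47.6% in F3 replicate 2, against 46.7% in F2 replicate 1 and 48.1% in F2 replicate 2. The groups differed by -0.0018 percentage points (F3 47.4 ± 0.256, F2 47.4 ± 0.971, SD, n = 2 each, exact permutation p = 1.0). Within number 1 the difference was 0.504 points and within number 2 it was -0.508 points. Of the 45 sites, 7 were higher in F3 without overlap and 7 lower, which is 15.6% each, beside 12.0% higher and 7.37% lower of all positions. The median absolute difference over sites was 1.79 points between F3 and F2 of number 1 and 1.69 points between those of number 2, against 2.25 points between the F3 replicates and 2.15 points between the F2 replicates. Sites thus varied less between fractions of the same number than between replicates of the same fraction.

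25S Ψ990 had the largest non-overlapping difference among Ψ sites. Its mismatch frequency was 18.7% (Wilson 95% interval 16.3 to 21.3, 942 reads) in F3 replicate 1 and 18.3% (13.1 to 24.9, 164 reads) in F3 replicate 2. In F2 it was 21.8% (20.9 to 22.6, 8477 reads) in replicate 1 and 26.5% (22.7 to 30.7, 464 reads) in replicate 2. Both F3 libraries were lower, by 5.64 percentage points between the means, but the adjusted p was 1.0 in the quasi-binomial model. In the 13 other libraries with at least 50 reads there, mismatch at Ψ990 ran between 18.3% and 27.7%.

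18S Ψ211 was next. It had 53.3% mismatch in F3 replicate 1 and 52.2% in F3 replicate 2, against 56.5% in F2 replicate 1 and 56.2% in F2 replicate 2. Both F3 libraries lay below both F2 libraries, with an adjusted p of 1.0 in the quasi-binomial model. From general knowledge of yeast snoRNAs, Ψ990 and Ψ211 are both directed by snR49, an H/ACA snoRNA whose other targets are 18S Ψ120 and Ψ302. This grouping was made after the values had been seen, so it is a description.

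18S Ψ120 had 48.7% and 36.4% mismatch in F3 replicates 1 and 2, against 50.1% and 44.7% in F2 replicates 1 and 2, so the groups overlapped. 18S Ψ302 had 48.6% and 46.6% in F3, against 49.2% and 47.2% in F2, and overlapped too. Within both replicate numbers all 4 snR49 targets were lower in F3, by 0.62 to 3.26 percentage points in number 1 and 0.57 to 8.31 points in number 2. Of the 45 Ψ sites, 14 were lower in F3 within both numbers and 15 were higher, or 31.1% and 33.3%, beside 21.0% and 26.6% of all positions. None of the 4 targets passed the test.

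Among the other Ψ sites, 18S Ψ1181 was higher in F3. Mismatch there was 69.5% in F3 replicate 1 and 68.8% in F3 replicate 2, against 63.0% in F2 replicate 1 and 68.2% in F2 replicate 2. The gap between F3 replicate 2 (interval 64.6 to 72.7) and F2 replicate 2 (66.2 to 70.2) was within counting error, and the adjusted p was 1.0 in the quasi-binomial model. The difference was 0.918 points without F2 replicate 1 (adjusted p = 0.802) and 6.12 points without F2 replicate 2 (adjusted p = 0.00851), so the call turned on which F2 library was kept, with the spread of the F3 pair alone. 18S Ψ759 had 84.1% and 80.7% in F3, against 84.6% and 85.3% in F2. Its companion target of snR80, 25S Ψ776, had 58.2% and 69.1% in F3, against 60.2% and 58.5% in F2, so the means of the 2 sites differed in opposite directions. The smallest differences between group means were at 25S Ψ1056, with 16.9% and 16.7% in F3 against 18.1% and 15.6% in F2, and at 5.8S Ψ73, with 45.3% and 43.2% in F3 against 45.2% and 43.1% in F2.

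Sites whose guides were deleted elsewhere in the series did not separate the fractions. 25S Ψ2129, a target of snR3, had 49.0% and 57.6% mismatch in F3 replicates 1 and 2, against 46.2% and 64.3% in F2 replicates 1 and 2. The spread between replicates of each fraction was larger there than the difference of -1.97 percentage points between them. 25S Ψ2133 and Ψ2264, of the same guide, differed by -0.89 and 1.78 points. The snR34 targets 25S Ψ2826 and Ψ2880 differed by 0.58 and 1.08 points, and the snR36 target 18S Ψ1187, with 17.6% and 24.1% in F3 against 14.7% and 23.3% in F2, by 1.89 points. The libraries overlapped at all 6 of these sites.

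Helix 69 of 25S contacts the small subunit and the tRNA in the decoding region, and carries a cluster of Ψ. Of its sites, Ψ2258 had 82.1% and 78.7% in F3, against 79.6% and 81.7% in F2. Ψ2260 had 19.8% and 19.3% in F3, against 20.4% and 20.0% in F2, with both F3 libraries lower by a mean of 0.62 percentage points. Ψ2266 had 16.3% and 14.9% in F3, against 16.1% and 14.0% in F2. In the peptidyl transferase region, Ψ2923 had 49.1% and 42.7% in F3, against 46.7% and 43.3% in F2, and overlapped. In both fractions replicate 1 was the higher library at Ψ2923 and replicate 2 the lower.

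**Figure D3:**
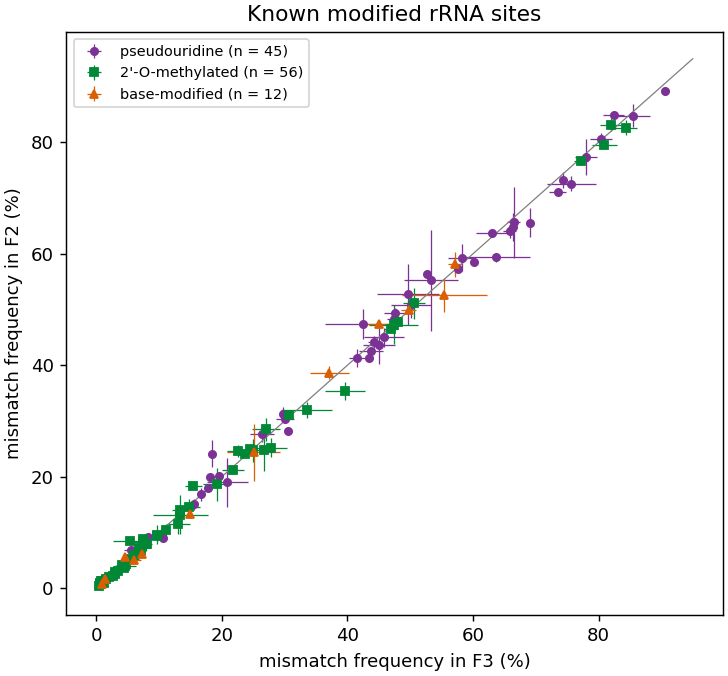
Mean mismatch frequency at the 113 known sites in F3 (horizontal axis) against F2 (vertical axis), with bars spanning the 2 libraries of each fraction and the line of equality in grey. The sites follow the line, with 25S Ψ990 the Ψ site farthest above it without overlap, at 18.5% in F3 and 24.1% in F2.

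At the 56 Nm sites, whose methyl group sits on the ribose, the class means did not separate the fractions either. Mean mismatch was 19.2% and 18.3% in F3 replicates 1 and 2, against 19.1% and 18.2% in F2 replicates 1 and 2, a difference of 0.106 percentage points (exact permutation p = 0.667). Mean insertion was 22.7% and 22.1% in F3, against 22.2% and 22.5% in F2, a difference of 0.0522 points (exact permutation p = 1.0). Both measures overlapped between the groups. In mismatch only 2 Nm sites were higher without overlap and 3 lower, which is 3.57% and 5.36% of 56 and below the shares over all positions.

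The Nm site with the largest non-overlapping difference was 25S Gm908, with 8.06% and 2.70% mismatch in F3 replicates 1 and 2, against 8.19% and 8.70% in F2 replicates 1 and 2. It rested on F3 replicate 2, where 148 reads gave an interval of 1.06 to 6.74, since F3 replicate 1 and F2 replicate 1 nearly coincided. 25S Um2347 had 16.8% and 14.1% in F3, against 18.3% in each F2 library. 25S Gm2619 had 7.36% and 7.69% in F3, against 8.70% and 8.91% in F2. 25S Gm867 had 3.37% and 2.80% in F3, against 2.73% and 2.39% in F2, and was the higher one among these. The smallest differences were at 18S Gm1572 and Cm1007, each of -0.018 points.

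The Spb1 site 25S Gm2922 and its neighbour Um2921, which lie in the loop that binds the aminoacyl-tRNA, overlapped as well. Gm2922 had 24.8% and 24.3% mismatch in F3, against 24.6% and 25.3% in F2. Um2921 had 78.3% and 76.1% in F3, against 75.9% and 77.4% in F2.

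Deletions at Nm sites were more often lower in F3. Without overlap, 12 of the 56 sites were lower in F3 and 2 higher, which is 21.4% and 3.57%, beside 11.7% and 12.0% of all positions. In the other classes the lower shares lay nearer to the 11.7% of all positions. Of the 45 Ψ sites 6 were lower in deletion and 2 higher (13.3% and 4.44%). Of the 12 base-modified sites 2 were lower and 0 higher (16.7% and 0.0%). Regardless of overlap, mean deletion was lower in F3 at 36 Nm sites and higher at 20. It was lower at 25 Ψ sites and higher at 20, and lower at 6 base-modified sites and higher at 6. Mean deletion over the Nm sites was 8.72% and 8.58% in F3 replicates 1 and 2, against 9.11% and 8.98% in F2 replicates 1 and 2. The largest of the Nm differences was at 25S Gm805, with 6.56% and 3.57% in F3, against 7.38% and 10.3% in F2. Its neighbour Am807, read from much the same molecules, had 9.52% and 7.14% in F3, against 9.53% and 12.7% in F2. 18S Am420 had 2.97% and 1.90% in F3, against 4.62% and 4.74% in F2. None passed the test, with adjusted p of 1.0 for these 3 in the quasi-binomial model, and the lower count was chosen for mention after it had been seen.

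The 12 base-modified sites averaged 25.8% and 24.96% mismatch in F3 replicates 1 and 2, against 25.8% and 24.8% in F2 replicates 1 and 2 (exact permutation p = 0.667). Of the 12, 2 were higher in F3 without overlap and 1 lower, or 16.7% and 8.33%, near the 12.0% and 7.37% of all positions. The Bmt6 site m3U2843 of 25S had 14.7% and 15.2% in F3, against 12.7% and 14.0% in F2. The Bmt5 site m3U2634 had 6.92% and 7.79% in F3, against 6.84% and 5.57% in F2, with F3 replicate 1 and F2 replicate 1 close to each other. The lower site was ac4C1280 of 18S, an acetylation by Kre33, with 5.09% and 4.09% in F3, against 6.00% and 5.36% in F2. The other Kre33 site, ac4C1773, had 5.10% and 7.11% in F3, against 5.38% and 4.80% in F2, and overlapped.

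The remaining 8 base-modified sites overlapped between the fractions. The hypermodified m1acp3Ψ1191 of 18S, made on the P-site side of the small subunit by Emg1 and Tsr3, had 50.9% and 48.6% in F3, against 49.1% and 50.6% in F2. The Bud23 site m7G1575 had 48.0% and 41.9% in F3, against 46.9% and 48.0% in F2. The neighbouring dimethylated adenines made by Dim1 near the 3′ end of 18S had, at 1781, 40.2% and 34.1% in F3, against 39.8% and 37.6% in F2, and at 1782, 29.3% and 20.9% in F3, against 29.5% and 19.2% in F2. The Rrp8 site m1A645 of 25S had 48.7% and 62.2% in F3, against 49.6% and 55.7% in F2. The Bmt2 site m1A2142 had 58.3% and 56.0% in F3, against 60.4% and 55.9% in F2. The 5-methylcytidines of Rcm1 and Nop2, m5C2278 and m5C2870, were at or below 2.42% in the 4 libraries and differed by 0.17 and -0.26 points.

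Outside the listed sites, the 3′ end of 18S showed the largest difference in deletion and in base quality. This end is formed in the cytoplasm, when Nob1 cleaves the precursor as the last step of small-subunit maturation, and it lies next to the Dim1 adenines shown in the first sequence line. At position 1799, deletion was 13.2% (interval 11.5 to 15.2, 1240 reads) in F3 replicate 1 and 14.3% (11.5 to 17.8, 474 reads) in F3 replicate 2. In F2 it was 23.8% (23.2 to 24.5, 17332 reads) in replicate 1 and 28.1% (26.2 to 30.1, 1990 reads) in replicate 2. Both F3 libraries were lower, by 12.2 percentage points between the means (unadjusted p = 0.000543, adjusted p = 1.0, quasi-binomial model). The difference was -14.3 points without F2 replicate 1 and -10.04 points without F2 replicate 2. The position passed the test in both of those fits, whose spread rests on the F3 pair alone.

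Base quality was lower there too. At position 1800 the mean quality was 5.88 and 6.05 in F3 replicates 1 and 2, against 9.16 and 11.2 in F2 replicates 1 and 2, the largest difference in quality of all positions outside the listed sites. At position 1799 it was 7.66 and 7.45 in F3, against 9.60 and 10.6 in F2. At positions 1796, 1797 and 1798 both F3 libraries were also below both F2 libraries, so the lower quality covered the last 5 positions of 18S without overlap. At 1798 the deletion frequency was 2.85% and 4.06% in F3, against 5.51% and 14.4% in F2, lower in F3 but with a wide gap between the F2 libraries. Its adjusted p in the quasi-binomial model was 1.0 with all libraries. The difference was -11.0 points without F2 replicate 1 and -2.05 points without F2 replicate 2, and it passed in both of those fits, with the spread of the F3 pair alone. For base quality the adjusted p in limma's test was 1.0 at both 1800 and 1799.

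Other libraries bear on how particular this end is to the pair. In the 16 other libraries, deletion at 1799 ran between 10.7% and 26.7%, with 21.8% and 26.7% in F1 and 25.3% and 14.8% in F4. Quality at 1800 was 7.98 and 9.27 in F1, 7.44 and 10.3 in F4, and 5.04 and 5.01 in the untreated input. The quality values of F2 thus included the highest of the series at that base, whereas F3 lay near the pooled untreated fractions 3-4, which had 5.93 and 6.61. At the last base of 25S the direction was the opposite, with a quality of 7.50 and 8.03 in F3, against 6.96 and 7.40 in F2. F3 was the higher group there without overlap, by a narrow margin.

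**Figure D4:**
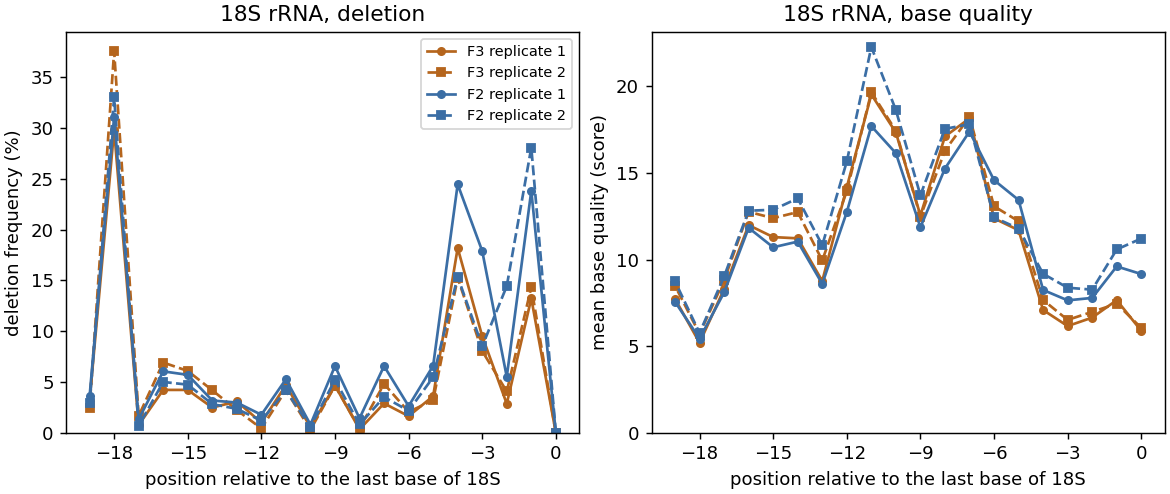
Deletion frequency (left) and mean base quality (right) over the last 20 bases of 18S, by position relative to the last base (0). F3 libraries (brown) have 13.2% and 14.3% deletion 1 base before the end, against 23.8% and 28.1% in the F2 libraries (blue), and the lower quality over the last 5 bases.

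Along 5.8S rRNA, deletions were more often lower and base quality more often higher in F3. Without overlap, 41 of its 146 kept positions were lower in deletion and 15 higher, or 28.1% and 10.3%, beside 11.7% and 12.0% of all positions. In base quality 32 positions were higher and 1 lower, or 21.9% and 0.685%, beside 1.86% and 1.75% of all positions. Over all positions mean quality was 16.9 and 18.0 in F3, against 16.5 and 18.4 in F2. The F2 libraries thus enclosed the F3 libraries, an order in which few positions can separate the groups. Mean quality over 5.8S was 15.2 and 16.1 in F3 replicates 1 and 2, against 14.1 and 16.0 in F2 replicates 1 and 2, and overlapped. The median quality difference over its positions was 1.13 within number 1 and 0.085 within number 2, so the replicate 2 libraries lay close together. Mean deletion over 5.8S was 7.84% and 8.02% in F3 replicates 1 and 2, against 9.12% and 8.16% in F2 replicates 1 and 2. The groups did not overlap, with a difference of -0.706 percentage points (exact permutation p = 0.333), but F2 replicate 1 set most of it, since the difference was -1.28 within number 1 and -0.136 within number 2. Without F2 replicate 1 it was -0.225. Neighbouring positions share reads and are not independent. Mean coverage of 5.8S was 301 and 168 reads in F3, against 1089 and 290 in F2. Over the 109 kept positions of 5S, mean deletion was higher in F3 at 54 and lower at 53, with a median difference of 0.0. Without overlap, 24 of them were lower in deletion and 15 higher, or 22.0% and 13.8%. In base quality 11 were higher and 6 lower, or 10.1% and 5.50%.

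The largest drop was at position 120, one of the adjacent pair of capitals in the sequence above. Deletion there was 35.5% (interval 30.5 to 40.8) and 39.7% (32.9 to 46.9) in F3 replicates 1 and 2, against 44.1% (41.3 to 46.9) and 48.7% (43.3 to 54.2) in F2 replicates 1 and 2. At position 84 it was 8.46% and 9.68% in F3, against 16.2% and 17.8% in F2, with an unadjusted p of 0.00153 and an adjusted p of 1.0 in the quasi-binomial model. The difference was -8.78 points without F2 replicate 1 and -7.08 points without F2 replicate 2, and it passed in both of those fits, with the spread of the F3 pair alone. At position 113 it was 62.1% and 63.6% in F3, against 69.1% and 70.1% in F2. At 102, deletion was 42.0% and 46.5% in F3, against 55.5% and 47.8% in F2, so that the replicate 2 libraries lay close together. In the 13 other libraries with enough reads, deletion at position 84 ran between 6.83% and 18.9%. The values of both fractions lie within that range. The 5.8S position with the largest quality difference was 39, with 24.9 and 26.4 in F3, against 22.1 and 24.1 in F2.

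**Figure D5:**
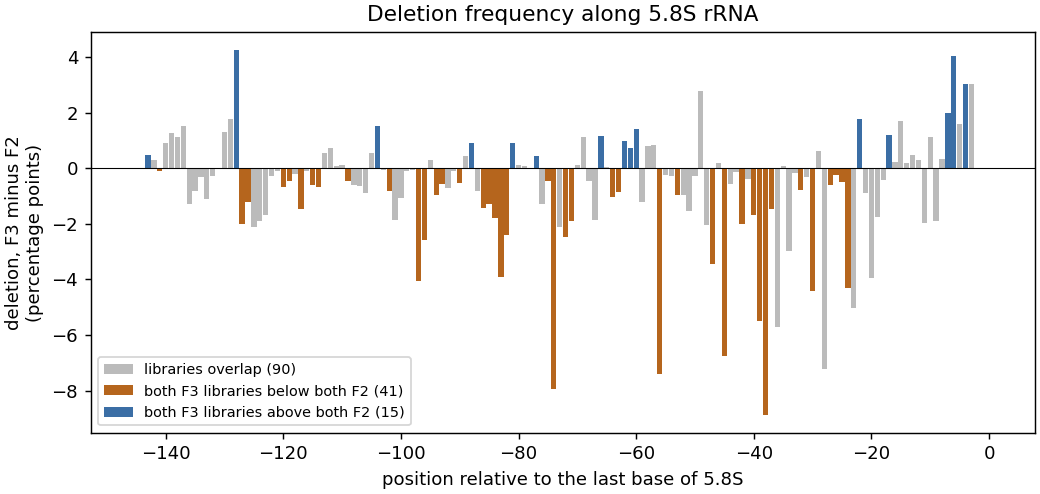
Difference in deletion frequency, F3 minus F2, along 5.8S rRNA by position relative to its last base. Brown bars mark the 41 positions where both F3 libraries lie below both F2 libraries, blue bars the 15 where both lie above, and grey bars positions where the libraries overlap.

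In 5S rRNA the single modified site is Ψ50, made by the stand-alone synthase Pus7. It had 72.1% and 74.8% mismatch in F3 replicates 1 and 2, against 70.6% and 71.4% in F2 replicates 1 and 2, higher in F3 by 2.46 percentage points without overlap. The 3′ neighbour at position 51 had 39.8% and 40.6% in F3, against 34.4% and 35.1% in F2, a difference of 5.51 points (unadjusted p = 0.00971, adjusted p = 1.0, quasi-binomial model). The intervals at position 51 were 36.7 to 43.0 and 38.6 to 42.7 in F3, against 30.5 to 38.5 and 28.0 to 42.9 in F2, the widest in F2 replicate 2 with 154 reads. In the 16 other libraries position 51 ran between 31.5% and 47.2%. Both fractions lay inside that range.

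The remaining positions with the largest non-overlapping differences mostly lay near 5′ ends, where coverage is low. 25S position 71 had 19.0% and 21.7% mismatch in F3 replicates 1 and 2, against 17.4% and 7.69% in F2 replicates 1 and 2, where F2 replicate 2 had 143 reads and F3 replicate 2 had 69. 25S position 16, the first kept position of that rRNA, had 7.41% and 8.77% in F3, against 5.16% and 1.03% in F2. 18S position 31 had 8.27% and 13.4% in F3, against 5.91% and 7.20% in F2. At all 3 the F3 libraries were higher, and none passed the test with all 4 libraries. At position 71 the difference was 12.7 points without F2 replicate 1 (adjusted p = 0.0433, quasi-binomial model with the spread of the F3 pair alone) and 2.96 points without F2 replicate 2 (adjusted p = 0.999).

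18S position 119, next to Ψ120, had an insertion frequency of 31.1% and 30.1% in F3, against 34.7% and 40.4% in F2. Position 118 had 33.1% and 27.2% in F3, against 34.7% and 38.9% in F2. Both were lower in F3 without overlap, by 6.95 and 6.69 percentage points. 25S position 285 had 8.52% and 16.5% insertion in F3, against 8.06% and 5.26% in F2. 5.8S position 157, the base before its last, had 22.4% and 26.6% mismatch in F3, against 20.7% and 17.2% in F2. None of these passed the test, with adjusted p between 0.999 and 1.0 in the quasi-binomial model.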

How the data were processed

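The deposited tables of base-call error features, named for EpiNano, give coverage, error frequencies and quality at each rRNA position. Per the file headers, coverage was deposited as a count of reads per position. The mismatch, insertion and deletion columns deposited by the authors each hold a fraction of the reads at a position, and the deposited mean base quality is a score. The sources used here name no basecaller, aligner, version or filter, and any of these could change error frequencies. Fractions times coverage gave whole reads at 100% of positions (tolerance 0.001).

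Reads with and without each error entered a quasi-binomial logistic model at each position, with no covariate. Its dispersion was moderated along log coverage with limma 3.58.1 (R 4.3.3) and floored at 1. Base quality was fitted with limma. P-values were Benjamini-Hochberg adjusted over all 5424 positions at 0.05, and both fits were tested on simulated data. Where summed errors exceeded coverage, at 17 positions, the any-error count was set to the coverage. Single values were tested by exact two-sided permutation over libraries. Coverage ratios were computed here from the deposited counts. Python 3.11.15, numpy 2.4.6 and pandas 2.3.3 did the rest.

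Named positions were any called positions, the known sites with the largest non-overlapping and the smallest mismatch differences in each class, other positions with the largest non-overlapping differences, all base-modified sites, targets of snR3, snR34 and snR36, helix 69 and the loop at 2921 to 2923. Members and lists were chosen with earlier results of these data known. Known sites and guides came from general knowledge, and at all 113 sites the reference base was one that can carry the listed modification. The 4 reference lengths match the RDN18-1, RDN25-1, RDN58-1 and RDN5-1 entries of the R64 gene table. Coordinates are left out because the files name no build. Replicates were compared before averaging. The mean chi-square per position for mismatch was 1.49 between the F3 libraries and 6.20 between the F2 libraries, above the 1 of sampling noise, so neither pair was treated as a repeated deposit.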

Additional observations from a re-analysis of the deposited data

How the results depend on the processing

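No class mean and no coverage ratio could pass its test with 2 libraries per fraction, so values and signs are compared here, and the cause of each change was not tested. Signs turned with the summary used. The difference in mean mismatch over Ψ sites, -0.0018 percentage points, became 0.303 as a median over sites, 1.49 with reads pooled and 0.363 at a coverage minimum of 200. Nm mismatch became -0.174 and Nm insertion -0.206 as medians, and Nm insertion became -0.306 with reads pooled, -0.133 with the unmodified level subtracted and -0.016 at a minimum of 200. Mismatch at base-modified sites became -0.961 with reads pooled, -0.0229 with the unmodified level subtracted and -0.164 at a minimum of 200. Deletion at unmodified positions became 0.0506 as a median and 0.0182 at a minimum of 200.

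Leaving out each library in turn moved the Ψ mismatch difference between -0.689 and 0.685 points, Nm mismatch between -0.361 and 0.574, Nm insertion between -0.280 and 0.384, and mismatch at base-modified sites between -0.390 and 0.560. At unmodified positions it moved mismatch between -0.388 and 0.582, deletion between -0.415 and 0.386, and base quality between -1.04 and 1.01. The 5′ to 3′ coverage difference on the log2 scale moved between -0.63 and 0.80 for 18S and between -0.89 and 1.76 for 25S. The differences in 18S over 25S, 5S over 25S and 5.8S over 25S coverage and in 5.8S deletion kept their sign under every alternative run, and the last 3 of these were chosen, with their alternatives, after seeing the data. Counts of called positions ran from 0 to 85 for mismatch, 0 to 26 for insertion, 0 to 52 for deletion and 0 to 154 for any error with a library left out, the highest without F2 replicate 1. Base quality stayed at 0.

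Equal replicate numbers are not stated to mark the same culture. Over the 5424 positions the differences between replicates of F3 and of F2 correlated at 0.479 for mismatch and 0.499 for base quality. With the replicate block, 3 positions were called for any error, all lower in F3, and 1 for base quality, while mismatch, insertion and deletion stayed at 0. With the library-wide level subtracted and the replicate block the counts were 3 for any error and 3 for base quality. The base quality call under the block was position 1800 of 18S (limma, adjusted p = 1.47e-07). The any-error calls were positions 1799 and 1798 of 18S, with 18.6% and 19.8% at 1799 in F3, against 32.0% and 33.4% in F2 (quasi-binomial, adjusted p = 1.79e-06 and 0.00396), and position 643 of 25S. At 643 the count reached the coverage in both replicate 2 libraries, so only replicate 1 could differ, with 92.3% in F3 and 98.6% in F2. With the block each position gives less information on its own spread than in the main fit. The adjusted p-values of these calls therefore lean on the spread shared over positions. Coverage minimums of 20, 100 and 200, limma on empirical logits and all 8 fraction libraries in the fit left 0 calls for each feature. At the named positions, values passed the threshold only with an F2 library left out or with the replicate block. Directions could turn where the libraries overlapped. At 25S Ψ2129 mean mismatch was 53.3% in F3, below the F2 mean of 55.2% but above the 46.2% of F2 replicate 1 alone. Depth limits single sites most in F3 replicate 2, with a median of 272 reads, and over 5S in F2 replicate 2, with 137 reads per position. The calls made with an F2 library left out take their spread from the F3 pair alone.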
